A study of Mus musculus with 6 samples.

Results

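The genes described here encode enzymes and membrane proteins of the lysosome, together with the transcription factors that control them, in mouse leukaemic blasts. The 31 members were listed by name, under a rule with no threshold on a measured value, and all 31 matched a row of the 24454 genes in the deposited table. They comprise 7 cathepsins, 8 glycosidases, 6 genes of lipid breakdown and cholesterol export, 2 other luminal proteins, 5 membrane proteins and the 3 TFEB family factors. The blasts derived from fetal liver cells on a C57BL/6 background that carried an MLL-AF9 retrovirus, an oncogenic fusion of acute myeloid leukaemia, in both groups. The Stat3β TG group (n = 3) carried Mx1-Cre recombinase and a Stat3β transgene, which encodes a C-terminally shortened isoform of STAT3, and the WT group (n = 3) came from wild-type littermates. Cells of both groups grew in NSG mice, which have no lymphocytes but keep myeloid cells of their own, received poly(I:C) at week 4 to induce Cre, and were sorted from bone marrow at week 6. Mx1-Cre is named for the transgenic group alone, so effects of Cre and of Stat3β cannot be told apart. The labels do not say that replicates came from separate donors or mice, so a p here reflects no more than the spread among the samples.

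Lysosomes break down proteins, glycans and lipids with acid hydrolases that are kept active by a proton pump. TFEB, TFE3 and MITF are related helix-loop-helix factors that bind the E-box CACGTG in promoters of many lysosomal genes. Their activity is set largely by phosphorylation by mTORC1 on the lysosomal surface, which transcript levels do not measure. Myeloid cells are rich in lysosomes, and their granules share many of these enzymes.

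The E-box is shown as the site that these factors are known to bind, and it was searched after the members' values had been seen. RefSeq windows of 300 bases (250 before to 50 after a start site, GRCm38.p6) were found for 27 members, and not for Npc1, Ctsh, Ctsb and Asah1. The motif TCACGTG, searched on both strands, occurred in the windows of 8 members: Ctsa, Ctsd, Gaa, Gla, Glb1, Lamp1, Mcoln1 and Naglu. That was 29.6% of the 27, against 6.98% of 10108 tested genes with a window. Counted by window, it was 8 of the 34 windows of members, against 3.77% of all 32851 windows. The shorter CACGTG, which every TCACGTG contains, occurred in 9 members (adding Ctsl), or 33.3%, against 11.7% of tested genes with a window. It occurred in 9 of the 34 windows of members, against 7.15% of all windows. The palindrome TCACGTGA, which contains TCACGTG on both strands, occurred in 4 members, or 14.8%, against 2.21% of tested genes with a window. It occurred in 4 of the 34 windows of members, against 0.974% of all windows. A 10-base motif, which extends TCACGTGA by a set base at each end, was also searched. Members had it in 0 of 27 genes, against 0.801% of tested genes with a window. By window, 0 of 34 carried it, against 0.326% of all windows. With so rare a motif, its absence from 27 members says little. A match describes letters in this window and does not show that a factor binds there. The 150 bases before the start site follow for 5 of the 8 carriers, chosen after their values were seen: Gaa, Glb1 and Lamp1, the channel gene Mcoln1, and Naglu, the 1 carrier fitted higher. All 5 lie on the plus strand. Capitals mark TCACGTG or its reverse complement.
Gaa, chr11:119267813-119267962, 1 site: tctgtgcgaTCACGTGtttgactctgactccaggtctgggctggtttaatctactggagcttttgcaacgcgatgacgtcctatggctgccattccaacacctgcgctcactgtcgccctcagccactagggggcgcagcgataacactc
Glb1, chr9:114400928-114401077, 1 site: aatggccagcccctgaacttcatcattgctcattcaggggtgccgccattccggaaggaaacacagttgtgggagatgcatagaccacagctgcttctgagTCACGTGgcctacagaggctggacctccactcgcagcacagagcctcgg
Lamp1, chr8:13159011-13159160, 4 sites: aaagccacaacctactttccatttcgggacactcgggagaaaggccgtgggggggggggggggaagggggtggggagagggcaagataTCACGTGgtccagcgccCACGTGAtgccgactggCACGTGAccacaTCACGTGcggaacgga
Mcoln1, chr8:3500369-3500518, 2 sites: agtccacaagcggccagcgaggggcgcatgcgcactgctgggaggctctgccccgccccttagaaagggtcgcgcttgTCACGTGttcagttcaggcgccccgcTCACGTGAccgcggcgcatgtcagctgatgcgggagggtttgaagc
Naglu, chr11:101069944-101070093, 1 site: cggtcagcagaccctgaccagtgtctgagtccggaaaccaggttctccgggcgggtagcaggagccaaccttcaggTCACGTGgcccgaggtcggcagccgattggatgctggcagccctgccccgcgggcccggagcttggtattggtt
Of the 5 shown, the site of Gaa lies farthest from its start, from base -141, while those of Glb1 and Naglu begin at -49 and -74. Lamp1 has its 4 sites between -62 and the start, the most of the 5.

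Levels are given in normalized counts, which are reads of a gene divided by a depth factor of the library. Between 21809788 and 51934498 reads were recovered in a library, and a count of 3 reads equalled 1.69 to 4.22 normalized counts, far below every member. Stat3 itself did not differ past the test, at 8058, 16112 and 10879 in WT 1 to 3 and 11129, 9846 and 8034 in Stat3β TG 1 to 3 (limma log2 fold change -0.23, adjusted p = 0.771), and its gene-level value does not separate the splice forms. On the first principal component, WT 1 (-38.3) lay with the Stat3β TG libraries (-31.4 to -16.3), apart from WT 2 (64.4) and WT 3 (49.7). Xist was high in WT 1 and WT 3 (42699 and 45196), and a summed set of 4 Y-linked genes was high in WT 2 and all Stat3β TG libraries (8781 to 11012). In WT 2 Xist was at 835, above the 19.1 to 71.6 of the Stat3β TG libraries. Group thus goes with these sex-linked genes except in WT 2, so effects of sex and of the transgene cannot be told apart. Among the members, Tfe3, Gla and Lamp2 lie on the X chromosome. The 8 genes listed for the myeloid blast were all present, with the MLL-AF9 target Hoxa9 at 7147 to 9288, while Cd3e was at 0 in all 6 libraries and the 4 endothelial markers stayed under 10 in each. The T and NK cell markers, Cd3e included, summed to 9.85 to 176 in WT and 92.3 to 145 in Stat3β TG. B cell markers summed to 1232 to 1798 in WT and 1197 to 2070 in Stat3β TG, mostly from Cd79b.

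Transcripts of the 31 members took 1.20%, 1.16% and 1.09% of all normalized counts in WT 1 to 3, and 1.08%, 1.11% and 1.17% in Stat3β TG 1 to 3. The groups overlapped, with means of 1.15% ± 0.0602 and 1.12% ± 0.0480 (SD, n = 3 each). Per kilobase of transcript (the median length of a gene's protein-coding transcripts), the highest was Laptm5, a membrane protein of haematopoietic lysosomes, at 17435 averaged over the 6 libraries. It was followed by the alpha-mannosidase gene Man2b1 (13394), the lysosomal membrane glycoprotein gene Lamp1 (12539), and Psap (9302), whose product is cut into the saposin activators of lipid breakdown. The progranulin gene Grn (8809) and the cathepsins Ctsz (8272) and Ctsd (7696) came next, and each neighbouring pair of these 7 overlapped over the libraries. The lowest was Mitf at 61.6 per kilobase, below the next lowest member, the cholesterol exporter Npc1 (349), in every library.

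**Figure D1:**
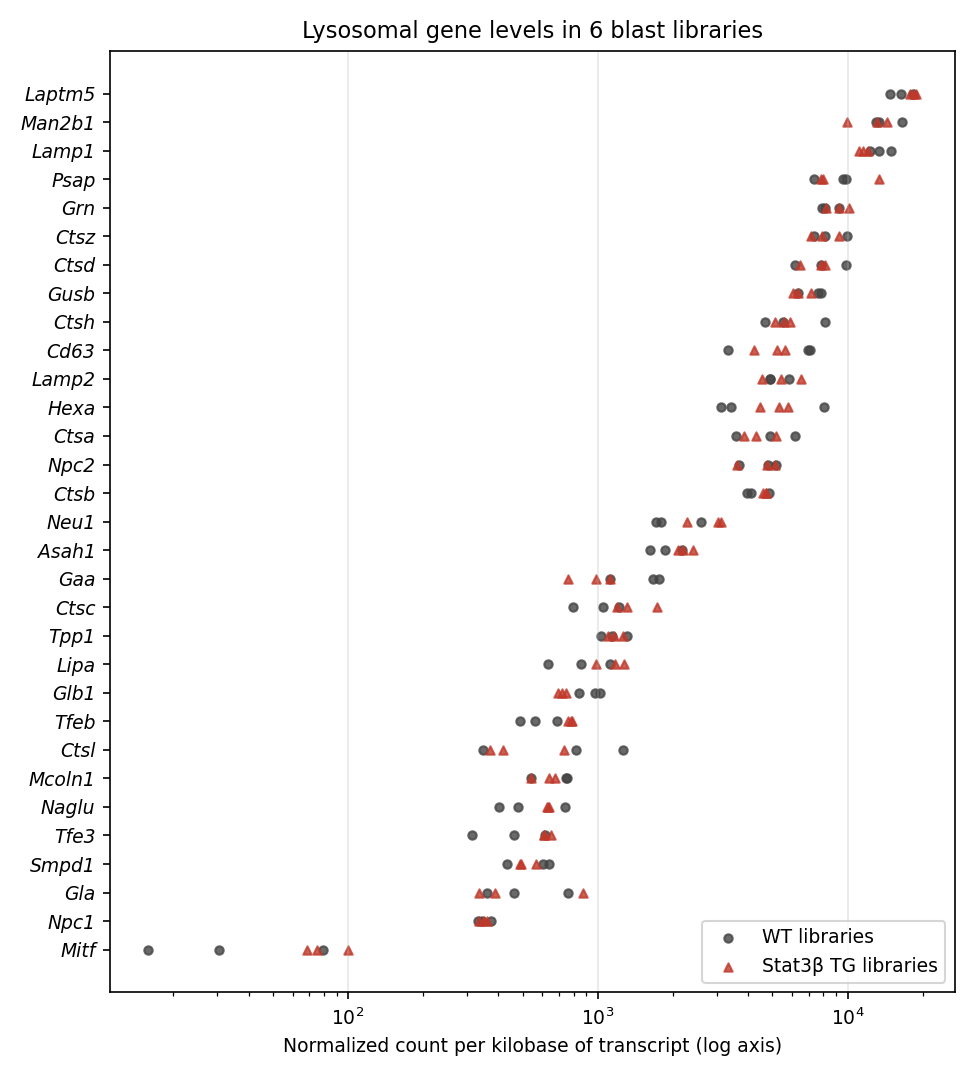
Normalized count per kilobase of transcript (log axis) of the 31 lysosomal genes, ordered by mean, with 1 point per library (circles WT, triangles Stat3β TG). Levels span from Laptm5 at a mean of 17435 to Mitf at 61.6, and for most genes the points of the 2 groups mix.

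Between the groups, the lysosomal genes went in both directions and none passed the test. Of 31 members 15 were fitted higher in Stat3β TG, where 51.4% of all 12642 genes tested were, and 16 lower. Their median log2 fold change was -0.0040, in a range of -0.66 to 1.23, beside a median of 0.01 over all genes tested. With limma, 0 members had an adjusted p under 0.05, as did 0% of all genes tested, and the smallest adjusted p of a member was 0.668. At an unadjusted limma p under 0.05 were 4 members, against 6.1% of all genes tested. Of these, 2 were higher (Tfeb and Neu1), where 3.56% of all genes were, and 2 lower (Gaa and Glb1), where 2.54% were. On recovered reads, edgeR called 0 members (0% of all genes) and DESeq2 0 members (0.134% of all genes), and each had 3 members at an unadjusted p under 0.05, where 6.17% (edgeR) and 7.67% (DESeq2) of all genes were. The groups did not overlap in 3 members, Tfeb on the higher side and Glb1 and Lamp1 on the lower, where 10.8% of all genes tested did not overlap.

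**Figure D2:**
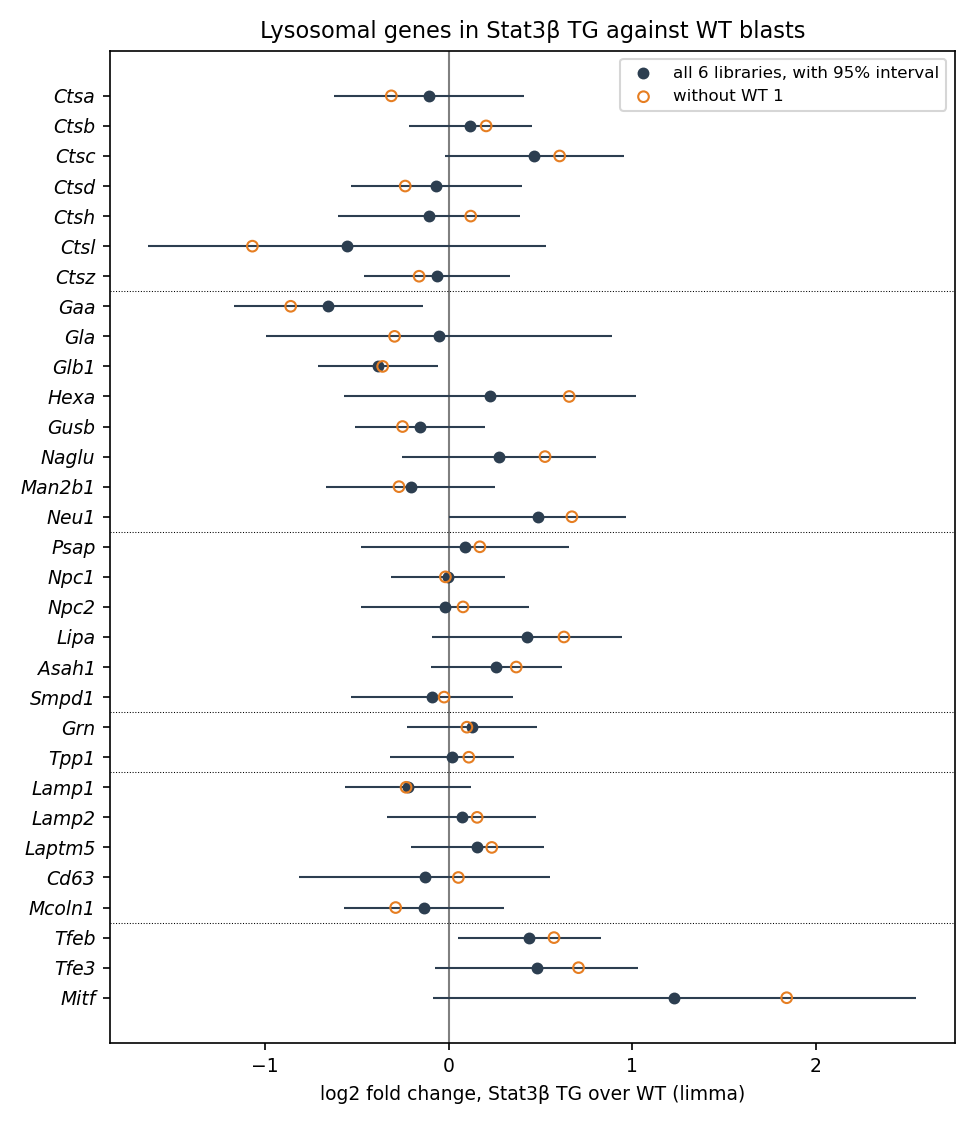
Limma log2 difference (Stat3β TG against WT) for each member with its 95% interval (filled points, all 6 libraries) and the estimate without WT 1 (open points); dotted lines divide the roles. The interval lies on 1 side of 0 for Gaa, Glb1, Neu1 and Tfeb, and leaving out WT 1 moves most estimates away from 0.

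The 3 TFEB family genes were all fitted higher in Stat3β TG, with WT 2 and WT 3 the lowest libraries of each. The median coefficient of variation of the 3 was 32.3% in WT and 3.92% in Stat3β TG, beside 22.5% and 14.5% over all genes tested. Tfeb (Entrez 21425, chromosome 17, 47737037 to 47792416, plus strand) had 1594, 1126 and 1293 normalized counts in WT 1 to 3 and 1818, 1763 and 1810 in Stat3β TG 1 to 3. All 3 Stat3β TG libraries lay above all WT libraries, with means of 1797 ± 29.6 and 1338 ± 237 (SD, n = 3 each). The log2 fold change was 0.44 with a standard error of 0.17, or 1.36-fold (limma adjusted p = 0.668). Tfe3 (Entrez 209446, chromosome X, 7762530 to 7775202, plus strand) had 1944, 1462 and 996 in WT, then 1925, 1931 and 2062 in Stat3β TG. WT 1 lay among the Stat3β TG values and WT 3 was lowest, so the groups overlapped. Its log2 fold change was 0.48 (standard error 0.24, limma adjusted p = 0.668). Mitf (Entrez 17342, chromosome 6, 97807002 to 98021360, plus strand), which also governs mast cells and pigment cells, had 170, 33.8 and 64.7 in WT, then 213, 145 and 161 in Stat3β TG. WT 1 lay between the Stat3β TG libraries and the other WT libraries lay below all of these. With a log2 fold change of 1.23 and a standard error of 0.57, it had the largest fold of the 31 and the lowest level (limma adjusted p = 0.668).

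**Figure D3:**
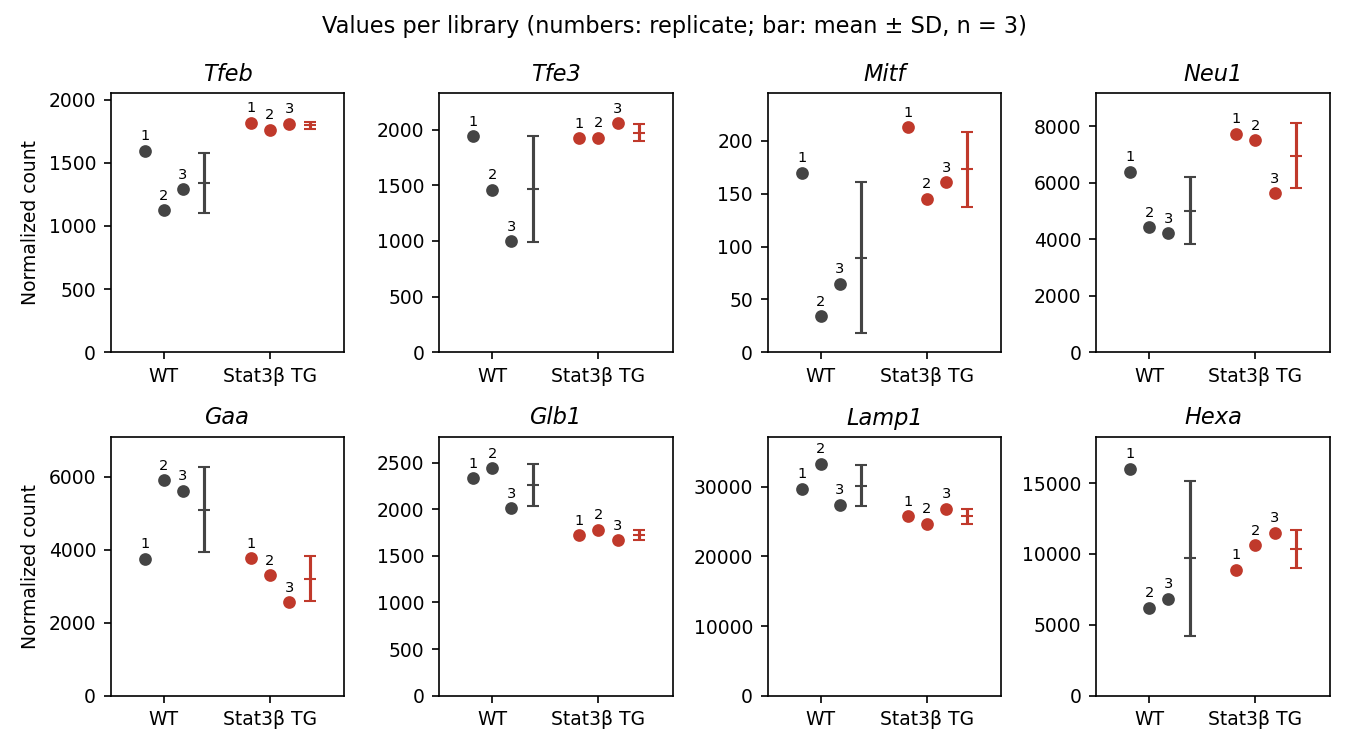
Normalized counts of 8 members in each library (points numbered by replicate) with the group mean ± SD (n = 3), on axes from 0. Tfeb is separated upward and Glb1 and Lamp1 downward, while WT 1 sits among or beyond the Stat3β TG points in Tfe3, Mitf, Neu1, Gaa and Hexa.

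Glycosidases, which trim sugars from glycoproteins, glycolipids and glycogen, were split. Of 8 members 3 were fitted higher and 5 lower, and the median was -0.11 on the log2 scale. Gaa, the acid alpha-glucosidase that degrades glycogen (Entrez 14387, chromosome 11, 119267963 to 119285458, plus strand), had 3754, 5905 and 5612 in WT 1 to 3 and 3762, 3300 and 2560 in Stat3β TG 1 to 3. WT 2 and WT 3 were highest, and WT 1 lay just below Stat3β TG 1. The means were 5090 ± 1167 and 3207 ± 606 (SD, n = 3 each), a log2 fold change of -0.66 (standard error 0.22, limma adjusted p = 0.668). Glb1, the beta-galactosidase (Entrez 12091, chromosome 9, 114401078 to 114474379, plus strand), had 2329, 2437 and 2008 in WT, then 1723, 1780 and 1668 in Stat3β TG. Every WT library exceeded every Stat3β TG library, by a log2 fold change of -0.38 (standard error 0.14, limma adjusted p = 0.668). The gene spans of Glb1 and Tmppe share 10107 bases, more than the 2396 bases of the Glb1 transcript, so introns are included. The bases that their transcripts share were not counted. Tmppe averaged 1670 normalized counts, and since handling of strand is not stated the value of Glb1 is uncertain.

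Neu1, the lysosomal sialidase (Entrez 18010, chromosome 17, 34931253 to 34937297, plus strand), had 6388, 4432 and 4223 in WT, then 7733, 7512 and 5635 in Stat3β TG. WT 1 exceeded Stat3β TG 3, so the groups overlapped at means of 5014 ± 1194 and 6960 ± 1153 (SD, n = 3 each; log2 fold change 0.48, standard error 0.21, limma adjusted p = 0.668). Hexa, the alpha chain of beta-hexosaminidase, had 16008, 6220 and 6833 in WT, then 8887, 10628 and 11504 in Stat3β TG, so that WT 1 lay far above, and the other WT libraries below, every Stat3β TG value. Naglu, which removes N-acetylglucosamine from heparan sulfate, followed the same order at 1898, 1030 and 1231 in WT, then 1602, 1625 and 1637 in Stat3β TG. Gla, the alpha-galactosidase encoded on the X chromosome, ranged from 1141 to 2411 in WT and 1061 to 2772 in Stat3β TG, with its highest values in WT 2 and Stat3β TG 2 and a 95% interval of -0.998 to 0.889. The beta-glucuronidase gene Gusb (12925 to 15978 in WT, 12357 to 14563 in Stat3β TG) and Man2b1 (49872 to 63101 and 37977 to 54918) had log2 fold changes of -0.16 and -0.21.

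Cathepsins, the lysosomal proteases, were fitted lower in 5 of 7 and higher in 2 (median log2 difference -0.07). Ctsc, or dipeptidyl peptidase 1, which activates the serine proteases of neutrophil granules, had 3486, 2994 and 2278 in WT 1 to 3 and 3724, 3401 and 4950 in Stat3β TG 1 to 3. WT 1 was within the Stat3β TG range and the other WT libraries below it (log2 fold change 0.47, standard error 0.21, limma adjusted p = 0.668). Ctsl, a cysteine protease, had the widest spread of the cathepsins, with 1412, 5143 and 3317 in WT, then 1508, 2978 and 1692 in Stat3β TG. Its highest values were WT 2 and WT 3 and its lowest was WT 1, so the interval of its log2 fold change ran from -1.64 to 0.53. Ctsh, which works as an aminopeptidase, was highest in WT 1 (13154) and lay between 7533 and 9489 elsewhere. The aspartic protease gene Ctsd was highest in WT 2 (19880) and lowest in WT 1 (12455), and Ctsa, which protects the sialidase and beta-galactosidase, was also highest in WT 2 (18985) and lowest in WT 1 (11054). Ctsb (18849 to 22949 in WT, 21661 to 22363 in Stat3β TG) and Ctsz (10578 to 14294 and 10269 to 13306) had log2 fold changes of 0.12 and -0.06. Gene spans overlap between Ctsb and Fdft1 (774 bases), and between Ctsa and both Neurl2 (725) and Pltp (1515). This makes the values of Ctsb and Ctsa uncertain as well. The same holds for other members, among them Hexa with Tmem202 (135 bases), Tfe3 with Gm39487 (3903) and Lamp2 with LOC115489130 (13570). Gm39487 and LOC115489130 are long noncoding RNA genes with no level given here.

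Genes of lipid handling differed little on average. Of 6 members 3 were fitted higher and 3 lower, and the median was 0.04 on the log2 scale. Lipa, the acid lipase that frees cholesterol from its esters, had 3326, 1883 and 2541 in WT 1 to 3 and 3793, 3481 and 2929 in Stat3β TG 1 to 3. WT 1 again lay inside the Stat3β TG range and the other WT libraries below it (log2 fold change 0.43, standard error 0.22, limma adjusted p = 0.668). Asah1, the acid ceramidase, showed the same order at 6009, 5137 and 4485 against 6108, 5818 and 6692. Its gene span, introns included, shares 8464 bases with that of Frg1, so its value is uncertain. Npc1, the membrane exporter of cholesterol, was the steadiest member, from 1735 to 1956 in all 6 libraries (log2 fold change -0.0040, 95% interval -0.32 to 0.31). The gene span of Npc1, introns included, shares 8982 bases with that of Rmc1, which makes its value uncertain too. Npc2, the soluble partner of Npc1, ranged from 11883 to 17059, and Smpd1, the acid sphingomyelinase, from 1042 to 1537, with overlapping groups. Psap was highest in Stat3β TG 3, at 35508 against 19396 to 26112 in the other libraries. The other luminal genes, Grn (18556 to 23682) and the tripeptidyl peptidase gene Tpp1 (3670 to 4652), had log2 fold changes of 0.13 and 0.02.

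Among the 5 membrane protein genes, 2 were fitted higher and 3 lower. Lamp1 (Entrez 16783, chromosome 8, 13159161 to 13175338, plus strand), which lines the lysosomal membrane, had 29689, 33322 and 27437 in WT 1 to 3 and 25748, 24684 and 26821 in Stat3β TG 1 to 3. The groups did not overlap, but the nearest values, WT 3 and Stat3β TG 3, were close, and the log2 fold change of -0.22 had a 95% interval of -0.57 to 0.12 (limma adjusted p = 0.675). Lamp2, its X-linked relative, overlapped at 10632 to 12703 and 9932 to 14199. Laptm5 was at 47675, 38553 and 42616 in WT, then 46265, 48990 and 47882 in Stat3β TG. The tetraspanin gene Cd63 was lowest in WT 2 (3545) and highest in WT 1 (7491), and Mcoln1, the calcium channel of the lysosome, ranged from 1119 to 1556.

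The 8 members with TCACGTG had log2 fold changes of -0.66 to 0.27 with a median of -0.12, and 7 of them were fitted lower. The 19 other members with a window had a median of 0.09, and 7 were fitted lower. These 19 include the 3 TFEB family factors themselves, all fitted higher (Tfeb 0.44, Tfe3 0.48 and Mitf 1.23), which raises that median. Over all tested genes with the motif, 367 of 706 (52.0%) were fitted lower, with a median of -0.01. The motif was searched after the members' values had been seen, and these counts carry no test. Of the 7 carriers fitted lower, Ctsa, Ctsd and Gla turned sign when 1 library was left out, with highest log2 fold changes of 0.077, 0.10 and 0.24. Gla was also fitted higher by edgeR (0.0016) and DESeq2 (0.0020), which leaves 6 of 8 lower.

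The order of the libraries recurred across members. WT 1 lay nearer to the Stat3β TG mean than to the mean of WT 2 and WT 3 (log2 scale) in 27 of 31 members, where 75.7% of all genes tested did. In 11 members, WT 2 and WT 3 were both below the other 4 libraries, where 21.9% of all genes were. These were Asah1, Ctsb, Ctsc, Hexa, Laptm5, Lipa, Mitf, Naglu, Neu1, Tfe3 and Tfeb. In 4 members, Ctsl, Gaa, Gusb and Mcoln1, both were above the other 4, where 20.5% of all genes were. Without WT 1, 9 members were higher and 3 lower at an unadjusted limma p under 0.05, where 14.9% and 12.1% of all genes were. The 9 were Asah1, Ctsc, Hexa, Lipa, Mitf, Naglu, Neu1, Tfe3 and Tfeb, and the 3 were Ctsl, Gaa and Glb1. Without WT 1 the groups did not overlap in 11 members on the higher side and 6 on the lower, where 23.8% and 22.4% of all genes did not. In that fit 0 members had an adjusted p under 0.05, against 2.74% of all genes, and the smallest was 0.0553, that of Gaa. Mitf then had a log2 fold change of 1.84 (limma adjusted p = 0.0565) and Tfeb of 0.57 (0.0730). Among the libraries with a high Y-linked sum, WT 2 is the only WT library. Against it the 3 Stat3β TG libraries averaged higher in 16 of 31 members (51.6%), where they did in 50.5% of all genes tested, with Tfeb at a log2 difference of 0.67, Neu1 at 0.64, Gaa at -0.90 and Glb1 at -0.50, and with no replicate to test it.

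**Figure D4:**
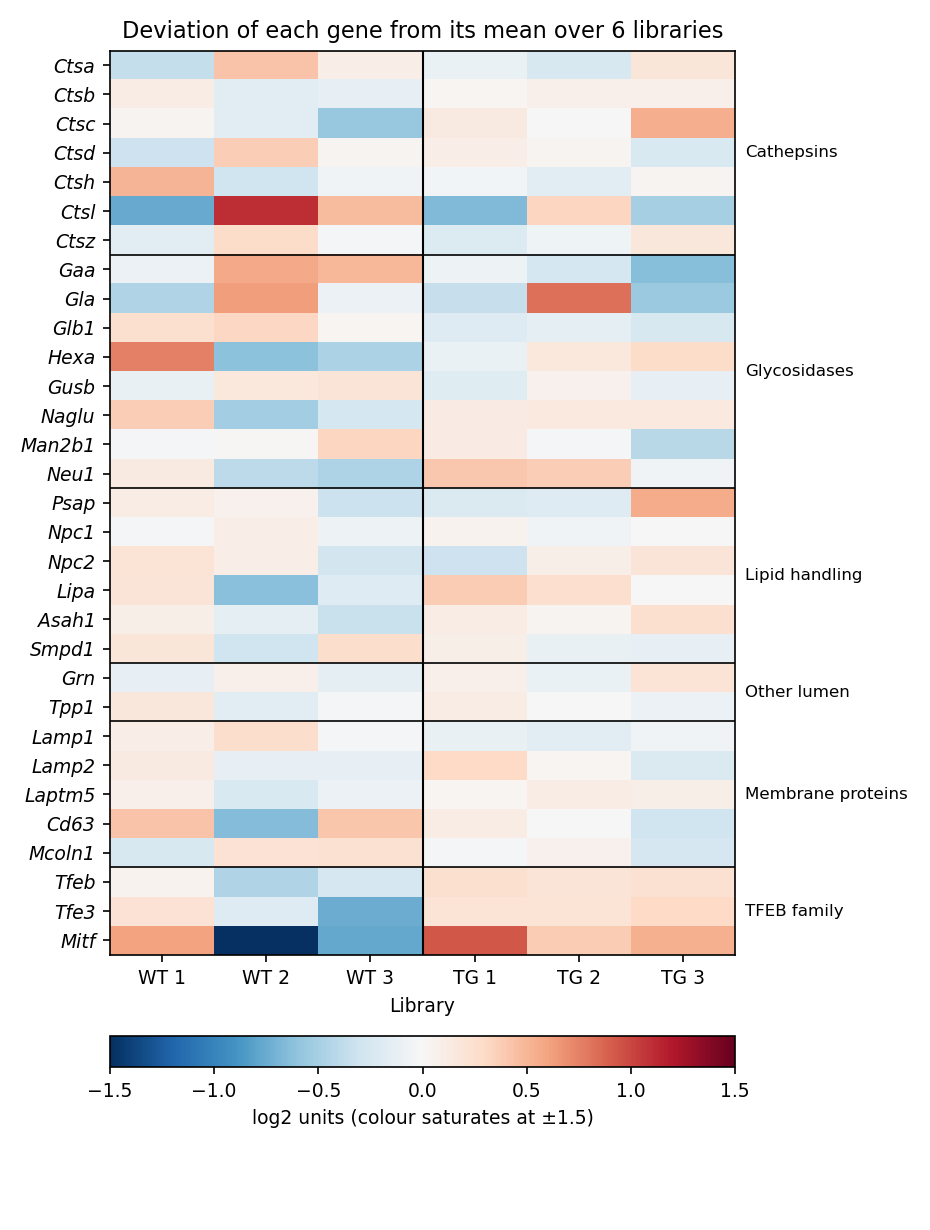
Deviation of log2(normalized count + 1) from each gene's mean over 6 libraries (colour, saturating at ±1.5; Mitf in WT 2 is beyond it), for the 31 members grouped by role. In the TFEB family, and in Hexa, Naglu, Neu1 and Lipa, WT 2 and WT 3 lie below the gene mean and below the other 4 libraries.

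Other genes of the lysosomal pathway also differed little between the groups. Of 129 listed genes 125 were tested, and Ctsk, Mcoln2, Mcoln3 and the proton pump subunit Atp6v0c were below the filter, the last of them at 0 to 4.22 normalized counts. Since the way reads were assigned to genes is not stated, the value of Atp6v0c does not show that its transcript was absent. With limma 0 were called, and 7 were higher and 1 lower at an unadjusted p under 0.05, against 3.56% and 2.54% of all genes tested. The groups did not overlap in 10 on the higher side and 2 on the lower, against 5.87% and 4.92%.

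Of 31 other hydrolases and activators 17 were fitted higher, with 4 at an unadjusted p under 0.05. Naaa, an acid amidase, had 652, 324 and 386 in WT 1 to 3 against 875, 621 and 1338 in Stat3β TG 1 to 3, with overlap between WT 1 and Stat3β TG 2. Without WT 1, limma called 2 of the 31, among them the phospholipase gene Pla2g15 (adjusted p = 0.0385), where 2.74% of all genes were called. Pla2g15, named for that call after its values were seen, had 5473, 2221 and 1562 in WT, then 4326, 4091 and 4663 in Stat3β TG, so WT 1 was its highest library.

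Of 19 other membrane proteins 11 were fitted higher. At an unadjusted limma p under 0.05, 3 were higher and 0 lower, where 3.56% and 2.54% of all genes tested were. The groups did not overlap in 4 on the higher side and 1 on the lower, where 5.87% and 4.92% of all genes tested did not. Tpcn2, an endolysosomal cation channel, had 987, 850 and 1092 in WT, then 1616, 1293 and 1232 in Stat3β TG, and Slc11a1, the metal transporter of phagocyte lysosomes, had 346, 278 and 266 against 778, 432 and 401. Neither overlapped between groups (limma adjusted p = 0.668 for each). Of 16 tested subunits and partners of the vacuolar ATPase 11 were fitted higher (median log2 difference 0.08), with 0 at an unadjusted limma p under 0.05. Atp6v1d had 1995, 1565 and 1326 against 2037, 2055 and 2130, and Atp6v1b2 had 13493, 10406 and 8654 against 12209, 13966 and 14993.

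Of 18 genes of mTORC1 and its regulators on the lysosome 11 were fitted higher and 7 lower. Tsc1, an inhibitor of mTORC1 signalling, had 1709, 2541 and 2021 in WT, then 1557, 1481 and 1497 in Stat3β TG, with every Stat3β TG library below WT (log2 fold change -0.45, limma adjusted p = 0.668). Mlst8, an mTORC1 subunit, overlapped at 998 to 2027 and 1578 to 2259. Genes of sorting to the lysosome were fitted higher in 9 of 16 (Sort1 and Gga1 with log2 fold changes of 0.33 and 0.19), and autophagy genes in 15 of 25 (Atg7 and Gabarapl2 with 0.30 and 0.59). Neither list had a member at an unadjusted limma p under 0.05.

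**Figure D5:**
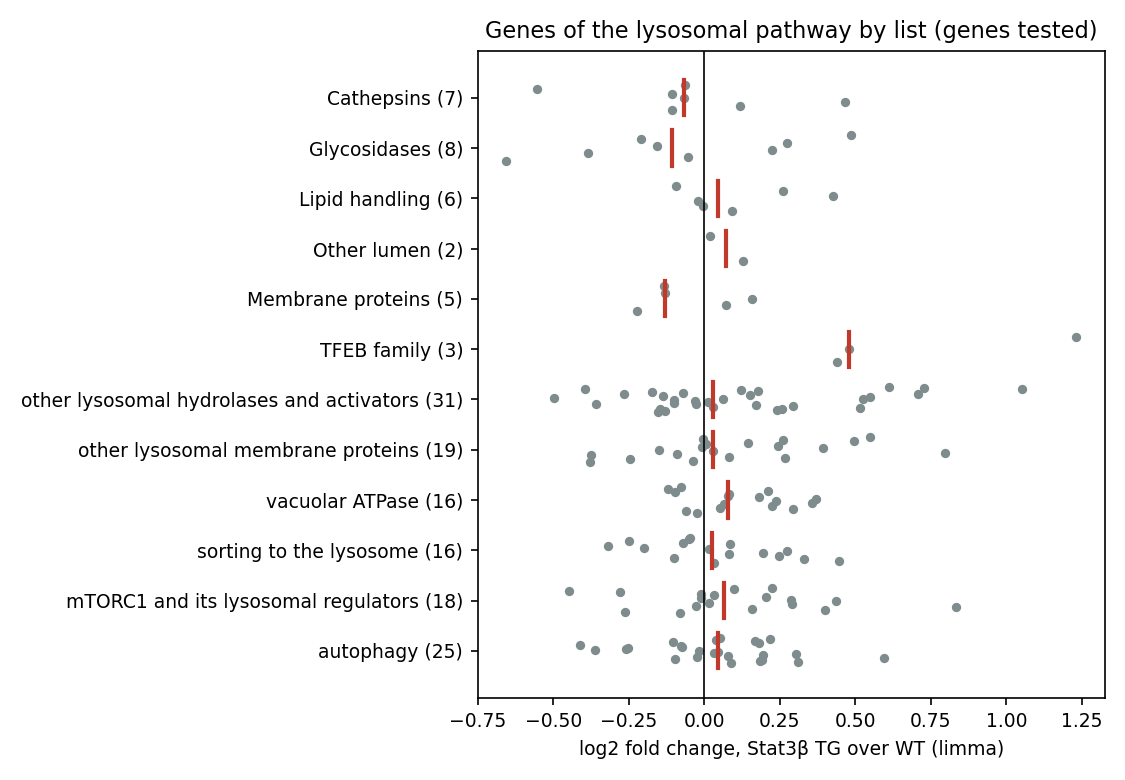
Limma log2 fold change (Stat3β TG over WT) of each tested gene (grey points) by list, with the list median as a red bar and the number tested in brackets. Medians lie near 0 for every list except the TFEB family, whose 3 genes have a median of 0.48.

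All 9 listed neutrophil markers were fitted higher in Stat3β TG, where 51.4% of all genes tested were, and 0 had an adjusted limma p under 0.05. At an unadjusted limma p under 0.05 were 4 of them, where 3.56% of all genes tested were higher. The summed level of these markers ranged from 52366 (WT 2) to 259300 (WT 1) in WT and from 256453 to 350922 in Stat3β TG. Macrophage markers were fitted higher in 4 of 5 tested, with sums of 1507 (WT 2) to 9692 (WT 1) and 4423 to 12121, while the macrophage genes Cd5l and Marco stayed under 10 in all libraries. Mast cell and basophil markers summed to 1284 to 2358 and 1068 to 4496, with Fcer1a, Cma1 and Tpsb2 under 10 in all. Eosinophil markers summed to 8997 to 43035 in WT, highest in WT 1, and to 5579 to 10670 in Stat3β TG. Most of each sum was Prg2, at 36893, 8375 and 28343 in WT 1 to 3 and 7055, 4094 and 4024 in Stat3β TG 1 to 3. Of the 4 eosinophil markers tested, 2 were fitted higher in Stat3β TG. Blasts of this leukaemia also express many neutrophil and macrophage genes, the cells were sorted by the reporter, and the part of these genes in the lysosomal values was not tested. In bulk RNA, more cells of a type and more RNA per cell cannot be told apart.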

How the data were processed

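RNA-seq of 6 sorted blast samples was analysed. The authors deposited gene-level normalized counts (signal, 1 column per library, Entrez IDs); per the submitters' processing notes, FastQC, STAR, DESeq2 and GRCm38 (mm10) were used. For the counter, strand handling and versions: not given in the sources used here. Every value was a whole multiple of 1 step per library (within 0.001, 100% of 146724 values), so whole reads were recovered. No library pair agreed within sampling noise (chi-square per gene 63.3 to 216).

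The 12642 genes reaching 10 normalized counts in 3 or more libraries were tested as log2(normalized count + 1), which understates changes of low genes, with limma 3.58.1 (trend, robust; R 4.3.3), two-sided, group as the only term, Benjamini-Hochberg over all genes tested, threshold 0.05. Alternatives were edgeR 4.0.16 and DESeq2 1.42.0 on recovered reads, other pseudocounts, filters and scaling, a replicate block, and left-out libraries. Scripts were tested on simulated data. Transcript lengths came from GENCODE M21, symbols, coordinates and promoters from RefSeq GRCm38.p6 (24376 of 24454 IDs matched). Marker and pathway lists matched 69 of 70 and 129 of 129 symbols. All members are described, and 2 genes of each pathway list with the smallest p are named, except 1 item that is not reported here. Members and lists were chosen with earlier results of these data known.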

Additional observations from a re-analysis of the deposited data

How the results depend on the processing

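No member passed the adjusted threshold in any of 15 alternatives each, and 18 of 31 members kept their sign in all of them. By construction fewer libraries were tested where one was left out; other causes were not tested. Over all genes DESeq2 called 17, and 9 were called without WT 2 and WT 3 (a lone WT library assumed to vary like the others). With each library left out, 0 to 346 genes were called, the most without WT 1 and 5 without WT 2. Members at an unadjusted p under 0.05 then numbered 1 to 12, with 0 to 9 higher and 0 to 3 lower; 3 to 17 had groups without overlap (9.68% to 54.8%, against 16.2% to 46.1% of all genes tested), their median log2 fold change was 0.011 to 0.099, and 1 to 30 pathway genes were at an unadjusted p under 0.05. In each of these the upper end is the fit without WT 1. In that fit 14.9% of all genes tested were higher and 12.1% lower at an unadjusted limma p under 0.05. Of the 125 pathway genes tested, 20 were higher and 10 lower at that threshold. Higher members numbered 1 by edgeR, DESeq2 and limma without trend, and 0 without WT 2 and WT 3, where 15 did not overlap (48.4%, against 44.3% of all genes tested) and 4 pathway genes were at an unadjusted p under 0.05.

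Replicate numbers were not shown to pair the samples (correlations 0.14, 0.10 and -0.11); with the replicate block, 3 members were higher and 1 lower at an unadjusted p under 0.05.

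The sign of Gla turned by DESeq2 (0.0020) and edgeR (0.0016). With each library left out, the sign turned in 13 members, whose log2 fold changes ranged from -0.49 to 0.053 for Cd63, -0.31 to 0.077 for Ctsa, -0.24 to 0.10 for Ctsd, -0.28 to 0.12 for Ctsh, -0.16 to 0.056 for Ctsz, -0.48 to 0.24 for Gla, -0.025 to 0.66 for Hexa, -0.060 to 0.20 for Lamp2, -0.040 to 0.046 for Npc1, -0.17 to 0.13 for Npc2, -0.16 to 0.22 for Psap, -0.27 to 0.014 for Smpd1 and -0.061 to 0.11 for Tpp1. At the lowest level of the 31, Mitf rests on the fewest reads.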
